A study of Bubalus bubalis with 6 samples.

Results

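The miR-30 family was examined in cell-free saliva of Murrah buffaloes (Bubalus bubalis) at estrus and at diestrus. Members were chosen by name from the authors' deposited table of normalized counts: any row named miR-30a to miR-30f after the bovine prefix bta, with or without an arm suffix. This gave 6 of the 273 listed miRNAs, namely miR-30a-5p, miR-30b-5p, miR-30c, miR-30d, miR-30e-5p and miR-30f. The 6 rows held 1007 of the 64277 reads recovered from the table. The family was singled out with results of the estrus against diestrus comparison known, so its phase differences are given below as a description. Intervals of ratios compare the counts of 2 libraries, and neither they nor the fit across all miRNAs is used as a test of a member between phases.

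Saliva came from 3 healthy animals, labelled wild type, each sampled once in estrus (heat) and once in diestrus (the luteal phase). This gave 3 libraries per phase, with no treatment. The number of a replicate is also the number of the animal. Ages are not given in the sources used here. The material is labelled as cell-free, so the libraries report RNA outside cells, and the design does not give its cell of origin.

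The miR-30 family is a group of microRNAs, small RNAs that pair with messenger RNAs through a short seed near the 5′ end and lower their translation and stability. Its members share this seed, so they can act on overlapping targets, and they differ mainly toward the 3′ end. How reads that match more than 1 member were counted is not given in the sources used here. The family is common in epithelial tissues and is known for restraining the epithelial to mesenchymal transition, in part through Snail. Its genes lie in several small clusters: miR-30d sits beside miR-30b, and miR-30e beside a copy of miR-30c within the NFYC gene.

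Library depth bears on every value of a scarce family. The 3 estrus libraries held 6749 to 27036 reads and the 3 diestrus libraries 3015 to 5548, so depth and phase cannot be told apart. miR-1246 alone took 55.0% to 76.2% of the reads at diestrus and 1.20% to 20.0% at estrus, so the shares of the members and lists were also computed on reads outside miR-1246. Estrus replicate 3 stood apart: it was the deepest library, and its column name holds the word "Repl", which the other 5 do not and whose meaning is not given in the sources used here. The main differences between phases are therefore also given without it. Intervals are 95% Wilson intervals unless named otherwise, and they cover counting error only.

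Nearly all miR-30 reads came from 1 library. Estrus replicate 3 held 961 family reads, which is 95.4% of the family's total, while it held 42.1% of all reads. Estrus replicate 1 held 35 family reads and estrus replicate 2 held 3. At diestrus, replicates 1, 2 and 3 held 1, 2 and 5. As a share of the library, the family made up 0.207% (0.149 to 0.288) in estrus replicate 1, 0.0445% (0.0151 to 0.131) in estrus replicate 2 and 3.55% (3.34 to 3.78) in estrus replicate 3. At diestrus it made up 0.0332% (0.00586 to 0.188), 0.0360% (0.00989 to 0.131) and 0.0989% (0.0423 to 0.231) in replicates 1, 2 and 3. The phases overlapped, since estrus replicate 2 lay below diestrus replicate 3.

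The mean family share (± SD, n = 3 libraries per phase) was 1.27% ± 1.98 at estrus against 0.0560% ± 0.0372 at diestrus, so the estrus SD exceeded its mean. On the log2 scale the mean share was 2.70 higher at estrus, with a pooled SD of 2.35 between replicates. Without estrus replicate 3 this difference was 0.97, and without estrus replicate 2 it was 4.13. Counting only reads outside miR-1246 reduced the difference over all libraries to 1.11. The family then made up 0.210%, 0.0556% and 3.62% in estrus replicates 1, 2 and 3, against 0.139%, 0.0800% and 0.374% in diestrus replicates 1, 2 and 3. On that scale estrus replicate 2 lay below all 3 diestrus libraries, and estrus replicate 1 lay below diestrus replicate 3. Without estrus replicate 3 the estrus mean was the lower one there, so the positive difference rested on that library. The phase difference of the family as a share of all reads was thus close in size to the spread between replicates, and it depended on which estrus library was left out.

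Within animals the family share was higher at estrus in each of the 3, by different amounts. In animal 3 it was 35.9 times the diestrus share (exact 95% interval of the ratio from the counts, 15.3 to 111). In animal 1 the ratio was 6.25, with an interval of 1.05 to 254 that rests on 1 read at diestrus. In animal 2 the ratio was 1.23, with an interval of 0.141 to 14.8. Among reads outside miR-1246 the ratios were 9.67 (4.13 to 29.9), 1.51 (0.253 to 61.1) and 0.695 (0.0796 to 8.32) in animals 3, 1 and 2. The ratio was thus largest in animal 3 on both scales, and in animal 2 the direction changed with the scale.

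The counts of the other 5 libraries were far below what the share of estrus replicate 3 would give at their depth. At the share seen in estrus replicate 3, estrus replicate 1 would have held 599.8 family reads and estrus replicate 2 would have held 239.9, where 35 and 3 were counted. The same share would have given 107.2, 197.2 and 179.7 reads in diestrus replicates 1, 2 and 3, where 1, 2 and 5 were counted. On reads outside miR-1246 the corresponding numbers were smaller, at 26.0, 90.5 and 48.4 for these diestrus libraries, and 603.5 and 195.4 for estrus replicates 1 and 2. The share in estrus replicate 3 was 17.1 times that of estrus replicate 1 (exact 95% interval of the ratio, 12.2 to 24.8). These libraries thus differed by more than the counting error that the interval covers, though estrus replicate 3 was singled out as the highest. Whether the gap lies between the animals or between the library preparations was not tested.

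**Figure D1:**
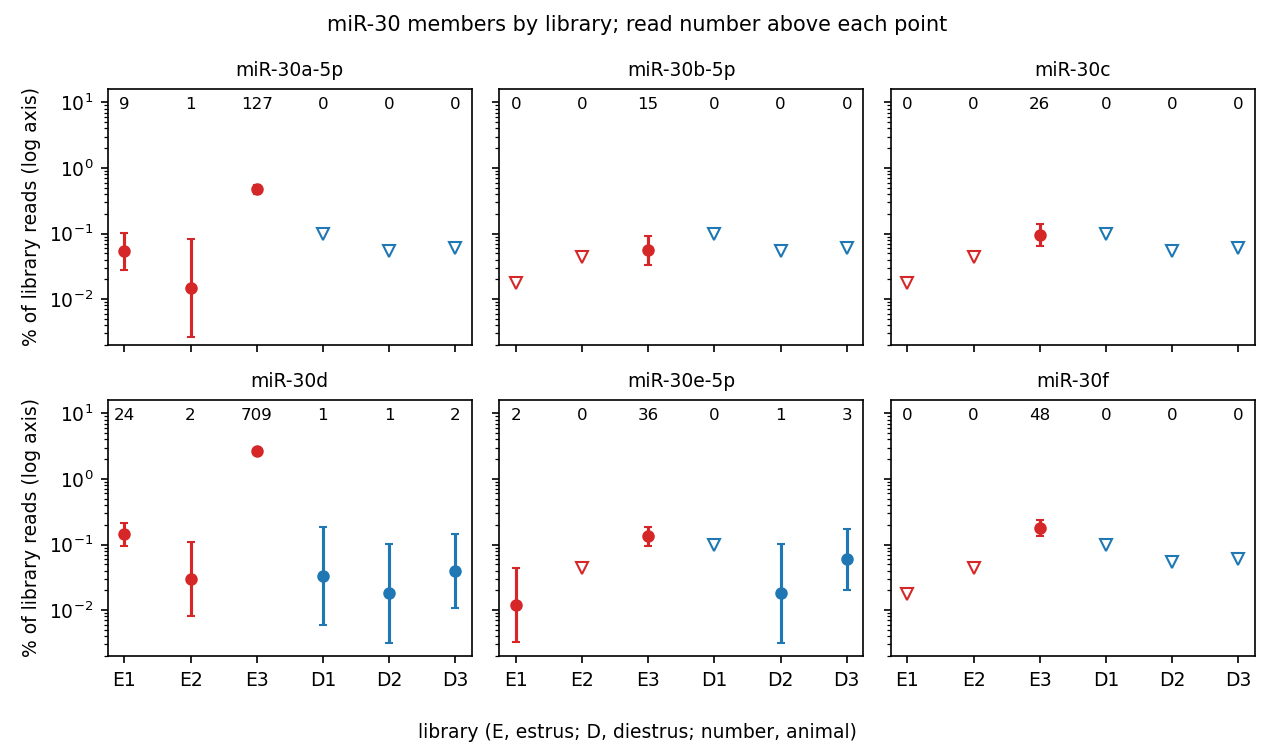
Share of library reads (%, log axis) of each miR-30 member in the 3 estrus (E, red) and 3 diestrus (D, blue) libraries, numbered by animal; filled points have 95% Wilson intervals, open triangles mark the upper limit that 0 reads allow, and read numbers stand above. Each of the 6 members has its highest counted share of all reads in E3 (outside miR-1246, miR-30e-5p is highest in D3), and miR-30d is the one member with reads in all 6 libraries.

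miR-30d was the leading member and the one found in every library. It is known from work on the uterus as a microRNA that the endometrium secretes and the early embryo takes up. Its reads numbered 24, 2 and 709 in estrus replicates 1, 2 and 3, and 1, 1 and 2 in diestrus replicates 1, 2 and 3. Estrus replicate 3 was far above the rest, estrus replicate 1 came next, and the other 4 libraries lay together at 1 or 2 reads. As a share of the library, miR-30d made up 0.142% (0.0956 to 0.212), 0.0296% (0.00813 to 0.108) and 2.62% (2.44 to 2.82) at estrus, and 0.0332%, 0.0180% and 0.0396% at diestrus. Among the miRNAs of a library, ordered by reads, it had rank 9 in estrus replicate 3, rank 32 in estrus replicate 1 and rank 54 in estrus replicate 2. Its ranks in diestrus replicates 1, 2 and 3 were 55, 69 and 39, so the ranks of the phases overlapped.

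On the deposited scale, in which each library's counts are divided by a size factor, miR-30d had 9.46, 3.62 and 128 normalized counts at estrus and 2.85, 1.63 and 3.44 at diestrus. The 2 phases did not overlap on this scale. Among the 58 miRNAs with a mean of at least 5 normalized counts, miR-30d was the 1 miRNA (1.72%) whose estrus values all exceeded its diestrus values. The separation lay between 3.62 in estrus replicate 2 and 3.44 in diestrus replicate 3, and both values stand for 2 reads, scaled by different size factors. As a share of reads the phases of miR-30d overlapped (1 of the 58, 1.72%, was higher at estrus without overlap on this scale: miR-2887, named after its values were seen), because estrus replicate 2, at 0.0296%, lay below diestrus replicates 1 and 3. As a share of reads outside miR-1246, estrus replicate 2, at 0.0371%, lay below all 3 diestrus libraries, at 0.139%, 0.0400% and 0.150%, and 0 of the 58 miRNAs (0%) were higher at estrus without overlap.

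Within animals, the miR-30d share at estrus was 4.29 times that at diestrus in animal 1, 1.64 times in animal 2 and 66.3 times in animal 3. The exact 95% intervals of these ratios were 0.699 to 176, 0.0856 to 97.0 and 18.3 to 548. The first 2 rest on 1 read at diestrus. Outside miR-1246 the ratios were 1.03, 0.926 and 17.8, with intervals of 0.168 to 42.4, 0.0482 to 54.6 and 4.92 to 148. The higher value at estrus held in 3 of 3 animals on the deposited scale, as for 10 of the 58 miRNAs (17.2%), and on the share of reads. Outside miR-1246 it held in 2 of 3. On these last 2 scales the number over all 58 miRNAs was not counted, so nothing is read from them.

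**Figure D2:**
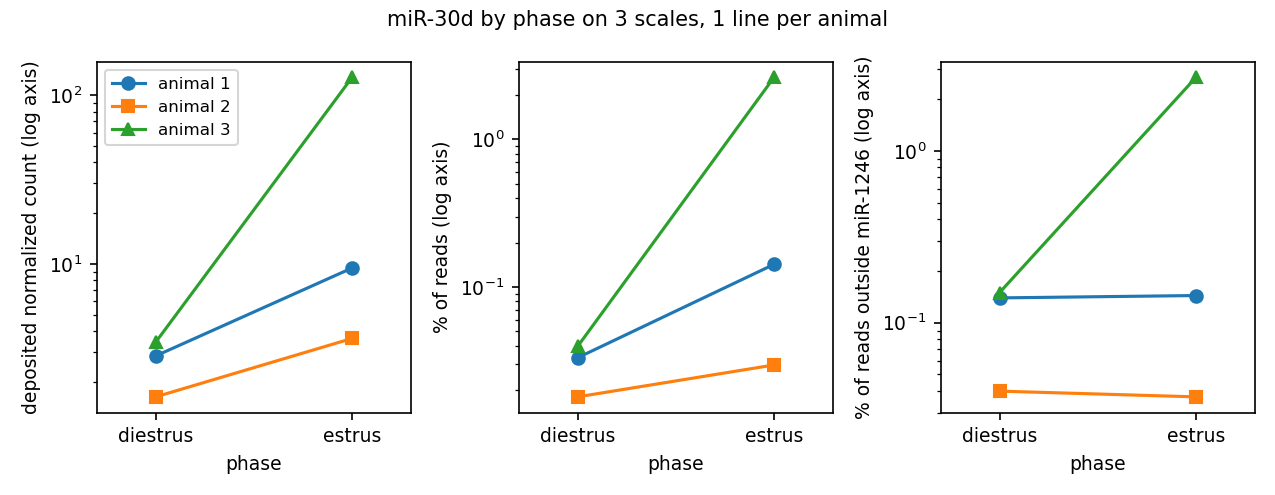
miR-30d at diestrus and estrus, 1 line per animal, as deposited normalized counts, as % of library reads and as % of reads outside miR-1246 (log axes). Animal 3 rises steeply on each scale, while outside miR-1246 the lines of animals 1 and 2 are nearly flat, with ratios of 1.03 and 0.926.

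miR-30d was the only member above the filter, and so the only one in the fit across all 58 miRNAs (limma on log2 of the normalized count plus 1). Its mean normalized count (± SD, n = 3 libraries per phase) was 46.9 ± 69.9 at estrus against 2.64 ± 0.922 at diestrus. Its log2 difference, estrus minus diestrus, was 2.37 (standard error 1.53). The median difference over the 58 miRNAs was 0.90, and relative to it miR-30d was 1.47 higher, the rank 9 from the top. miR-30d passed the filter through its estrus values: its mean without estrus replicate 3 was 4.20 normalized counts, under the minimum of 5, so its place among the 58 and its rank are no support for a difference. Without estrus replicate 3 its difference was 0.97 (standard error 0.66), which was 0.24 above the median of that fit, and it then ranked 24 from the top. In this fit 0 of the 58 miRNAs (0%) passed an adjusted p-value of 0.05 (Benjamini-Hochberg), and 8 (13.8%) passed an unadjusted one of 0.05; miR-30d was in neither group. Without estrus replicate 2 it was among the 11 that passed the unadjusted threshold, and nothing is read from either for the member.

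miR-30a-5p, known for lowering the autophagy protein Beclin and so autophagy, was the second most abundant member. It had 9, 1 and 127 reads in estrus replicates 1, 2 and 3, and 0 in each diestrus library. The shares at estrus were 0.0533% (0.0281 to 0.101), 0.0148% (0.00262 to 0.0839) and 0.470% (0.395 to 0.559). At diestrus, 0 reads allow a share of up to 0.0995%, 0.0541% and 0.0593% in replicates 1, 2 and 3. Estrus replicates 1 and 2 both lay below the limits of all 3 diestrus libraries, so for them a difference from diestrus was not detectable at this depth. In animal 3 the share at estrus was at least 7.92-fold higher than the limit of its diestrus library, which is 3 reads. Outside miR-1246 this bound was 2.13-fold, with 0.478% at estrus against a diestrus limit of 0.225%. Its mean over the 6 libraries was 4.70 normalized counts, just under the filter of 5, so it had no place in the fit.

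miR-30e-5p, whose gene shares a cluster with a copy of miR-30c, was the member whose phase means differed least on the deposited scale. It had 2, 0 and 36 reads in estrus replicates 1, 2 and 3, and 0, 1 and 3 reads in diestrus replicates 1, 2 and 3. Its share was 0.0119% in estrus replicate 1 and 0.133% (0.0962 to 0.184) in estrus replicate 3, against 0.0180% and 0.0593% (0.0202 to 0.174) in diestrus replicates 2 and 3. In animal 3 the share at estrus was 2.24 times that at diestrus, with an exact 95% interval of 0.709 to 11.4. Outside miR-1246 that ratio was 0.604, with an interval of 0.191 to 3.06. Its mean normalized count (± SD, n = 3 libraries per phase) was 2.42 ± 3.53 at estrus against 2.26 ± 2.64 at diestrus, a difference far smaller than the spread between replicates. The direction of miR-30e-5p in animal 3 thus changed with the denominator: outside miR-1246 its share was 0.136% at estrus and 0.225% at diestrus, its highest value.

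miR-30f, miR-30c and miR-30b-5p were found in estrus replicate 3 alone. miR-30f, a member named in cattle, had 48 reads there, a share of 0.178% (0.134 to 0.235). miR-30c, known in the heart for lowering connective tissue growth factor, had 26 reads, a share of 0.0962% (0.0656 to 0.141). miR-30b-5p, the cluster neighbour of miR-30d, had 15 reads, a share of 0.0555% (0.0336 to 0.0915). Of the 273 listed miRNAs, 47 (17.2%) had reads in that library alone, so such a pattern was common in the table.

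The 0 reads of these 3 members in the other libraries were read against the limit that each depth allows. In estrus replicate 1, 0 of 16874 reads allow a share of up to 0.0178%, and the shares in estrus replicate 3 were at least 9.99-fold higher for miR-30f, 5.41-fold higher for miR-30c and 3.12-fold higher for miR-30b-5p. In animal 3 itself, the shares at estrus were at least 2.99-fold higher for miR-30f and 1.62-fold higher for miR-30c than the diestrus limit. For miR-30b-5p the share at estrus was under the diestrus limit of 0.0593%, and a difference was not detectable at this depth. Outside miR-1246 none of the 3 differed detectably in animal 3: the shares at estrus were 0.181% for miR-30f, 0.0979% for miR-30c and 0.0565% for miR-30b-5p, all under the diestrus limit of 0.225%. In diestrus replicate 1, neither miR-30b-5p nor miR-30c would have been seen reliably, since the share of estrus replicate 3 would have given 1.67 and 2.90 reads.

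The make-up of the family could be read in the libraries with enough reads. In estrus replicate 3, miR-30d made up 73.8% of the family's reads (70.9 to 76.5), miR-30a-5p 13.2% (11.2 to 15.5), miR-30f 4.99% (3.79 to 6.56), miR-30e-5p 3.75% (2.72 to 5.14), miR-30c 2.71% (1.85 to 3.93) and miR-30b-5p 1.56% (0.948 to 2.56). In estrus replicate 1, with 35 family reads, miR-30d made up 68.6% (52.0 to 81.4), miR-30a-5p 25.7% (14.2 to 42.1) and miR-30e-5p 5.71% (1.58 to 18.6). The intervals of these 3 members overlapped between both libraries. Among these 3 members the order was thus the same in the estrus libraries of animals 1 and 3, although the family share differed 17.1-fold between them. Over all members it was not: miR-30f came before miR-30e-5p in estrus replicate 3, and had 0 reads in estrus replicate 1. The place of miR-30e-5p in estrus replicate 1 rests on 2 reads.

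The order at the top differed in diestrus replicate 3, on very few reads. There miR-30e-5p had 3 of the 5 family reads, or 60.0% (23.1 to 88.2), and miR-30d had 2, or 40.0% (11.8 to 76.9). For miR-30e-5p this interval lay above that of estrus replicate 3, and for miR-30d the intervals overlapped. No diestrus library had a read of miR-30a-5p, but 0 of 5 family reads allow a share of up to 43.4% by the Wilson interval. In estrus replicate 3 the neighbours miR-30d and miR-30b-5p differed 47.3-fold in reads. Reads of different miRNAs also differ in how well adapters join them, so a ratio between members is that of the counts in the library.

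**Figure D3:**
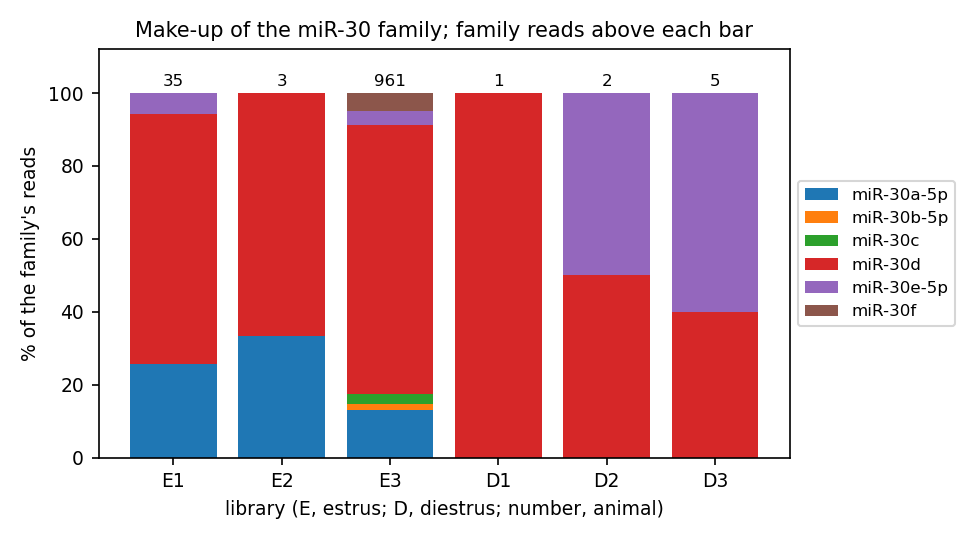
Share of each member among the family's reads (%) in the 3 estrus (E) and 3 diestrus (D) libraries, numbered by animal, with the number of family reads above each bar. miR-30d takes most of the bar in E1 (68.6%) and E3 (73.8%); the bars of E2, D1, D2 and D3 rest on 5 reads or fewer.

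More members were detected in estrus replicate 3 than elsewhere. The number with at least 1 read was 3, 2 and 6 in estrus replicates 1, 2 and 3, and 1, 2 and 2 at diestrus. Of all 273 listed miRNAs, 172, 116 and 228 were detected in estrus replicates 1, 2 and 3, and 84, 108 and 115 in diestrus replicates 1, 2 and 3. The whole table was thus also highest in estrus replicate 3 and next in estrus replicate 1. The mean number of members (± SD, n = 3 libraries per phase) was 3.67 ± 2.08 at estrus against 1.67 ± 0.577 at diestrus, and the phases overlapped. In 3015 reads, the depth of the shallowest library, the expected numbers were 2.15, 1.14 and 5.77 at estrus and 1, 1.09 and 1.77 at diestrus. The difference between phase means was 1.73 at that depth against 2 in the full libraries. Equal totals still leave unequal room beside miR-1246. In 717 reads outside miR-1246, the number that diestrus replicate 1 holds, the expected numbers were 1.06, 0.381 and 4.17 at estrus and 1, 0.574 and 1.69 at diestrus, and the difference between phase means was 0.79. This scale was chosen after the data were seen. Without estrus replicate 3 the difference was 0.83 in the full libraries, 0.36 at 3015 reads and -0.36 at 717 reads outside miR-1246, so its direction on the last scale rested on that library.

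All 6 members had their highest counted share of all reads in estrus replicate 3, although for miR-30b-5p and miR-30c this share lay under the limit that 0 reads allow in diestrus replicate 1. As a share of all reads, so did 123 of the 273 listed miRNAs (45.1%) and 27 of the 58 above the filter (46.6%), so the members shared this with a large part of the table. The 5 miRNAs whose profile over the 6 libraries was most like the family sum were named by the smallest root mean square difference of log2(normalized count + 1) after each profile was centred on its own mean. They were miR-184 at 0.46, let-7f at 0.70, miR-16a at 0.72, miR-26b at 0.74 and miR-200a at 0.75, where the median over the 57 other miRNAs was 2.09. This likeness is a description over 6 libraries that share depth and scaling. Over the 5 libraries without estrus replicate 3, miR-184 had rank 1 and let-7f had rank 4, while miR-26b, miR-16a and miR-200a had ranks 6, 7 and 10. In these 5 libraries miR-184 had 5 reads in estrus replicate 1 and 0 elsewhere. It passed the filter through estrus replicate 3, so its rank without that library shows no lasting likeness.

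Each of the 5 shared the peak in estrus replicate 3. miR-184 had 5, 0 and 233 reads in the estrus libraries and none in the diestrus libraries. miR-16a had 5, 2 and 579 estrus reads and 1, 1 and 2 diestrus reads, close to the counts of miR-30d in all but estrus replicate 1. let-7f and miR-200a had 111 and 30 reads in estrus replicate 1, and miR-200a had 1 read over the 3 diestrus libraries. miR-26b had 14, 1 and 524 estrus reads and 1, 4 and 5 diestrus reads.

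**Figure D4:**
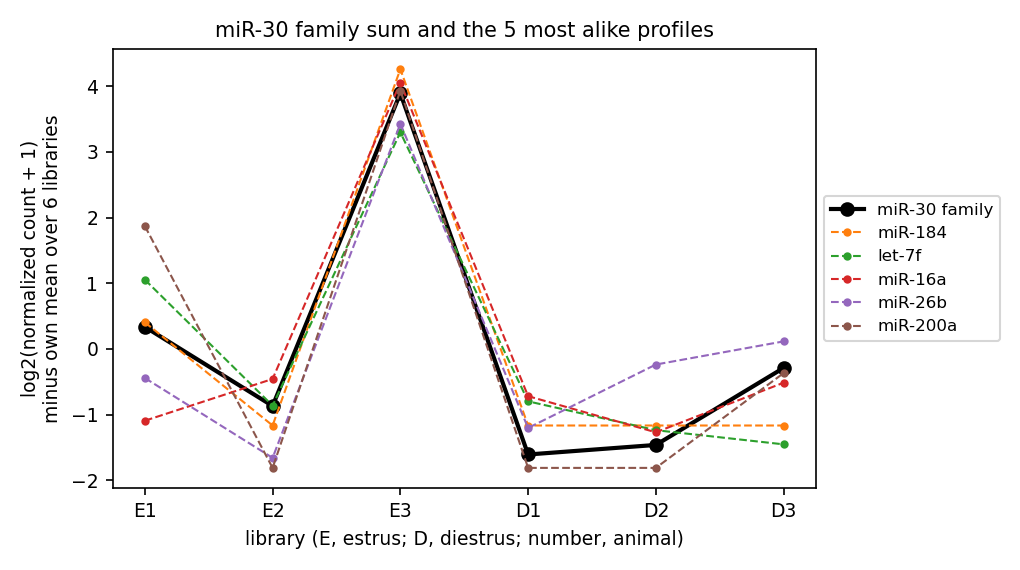
Profiles over the 6 libraries (E, estrus; D, diestrus; numbered by animal) of the summed miR-30 family (black) and of the 5 most alike miRNAs, as log2(normalized count + 1) minus the own mean of each. All 6 lines peak in E3, and they spread most in E1, where miR-200a lies highest and miR-16a lowest.

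Markers of the cell types that could release RNA into saliva moved with the family in part. The epithelial list (miR-200a, miR-200b, miR-200c, miR-141, miR-429, miR-205, miR-203 and miR-375) had 7 of its 8 members in the table. Their summed share was 1.10%, 0.163% and 9.41% in estrus replicates 1, 2 and 3, and 0.265%, 0.252% and 0.356% at diestrus. Both the epithelial list and the miR-30 family were highest in estrus replicate 3, followed by estrus replicate 1 and then diestrus replicate 3. Their orders parted below that: the list was lowest in estrus replicate 2, where the family, at 0.0445%, lay above diestrus replicates 1 and 2. Outside miR-1246 diestrus replicate 3 came before estrus replicate 1 in both, at 1.35% against 1.12% for the list and 0.374% against 0.210% for the family. On that scale the list was at 1.12% in diestrus replicate 1 as well, level with estrus replicate 1, while the family was lower there, at 0.139%. Of these miRNAs, miR-375, miR-200b and miR-429 were at 0 in all 3 diestrus libraries and also in estrus replicate 2. By contrast miR-205, miR-141, miR-200a and miR-200c each had reads at diestrus, and miR-205 had 7, 12 and 16 in replicates 1, 2 and 3. Of the 4 epithelial members in the fit, 0 were below an adjusted p of 0.05 and 1, miR-200c, was below an unadjusted one, upward, against 8 of all 58 (13.8%), of which 4 were upward (limma). The median log2 difference of the 4 was 3.05 against 0.90 over all 58. miR-200a, miR-200c and miR-375 had at most 2 reads in any diestrus library and passed the filter through estrus, so neither this count nor this median supports a difference; miR-205, with reads in all 6 libraries, had a log2 difference of -0.29.

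The leukocyte list (miR-223, miR-142, miR-150, miR-155, miR-146a and miR-146b) was mixed. As a sum it did not share the family's order. Its 6 listed members summed to 0.575%, 1.07% and 2.31% of reads in estrus replicates 1, 2 and 3, and to 3.68%, 1.77% and 3.64% at diestrus. Outside miR-1246 the sums were 0.582%, 1.33% and 2.35% at estrus, and 15.5%, 3.92% and 13.8% at diestrus. miR-223 held most of these reads. Like miR-30b-5p, miR-30c and miR-30f, miR-150, miR-155 and miR-146a had reads in estrus replicate 3 alone, with 16, 20 and 5, and miR-146b had 5 there and 1 in diestrus replicate 3. Of the 2 in the fit, 0 were below an adjusted p of 0.05 and 1, miR-142-5p, was below an unadjusted one, downward, where 4 of all 58 were downward (limma). The median log2 difference of these 2 was -2.48, against 0.90 over all 58. However, miR-142-5p had 0.788, 9.04 and 0.180 normalized counts at estrus and 37.0, 21.2 and 32.7 at diestrus, and so passed the filter through diestrus. Neither this count nor this median therefore supports a difference. Of the erythrocyte list (miR-451, miR-486 and miR-144), miR-486 was the 1 member in the table, with at most 8 reads in a library. The part of these cell types in the miR-30 values was not tested, and more cells releasing RNA and more miR-30 per cell cannot be told apart in cell-free saliva.

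**Figure D5:**
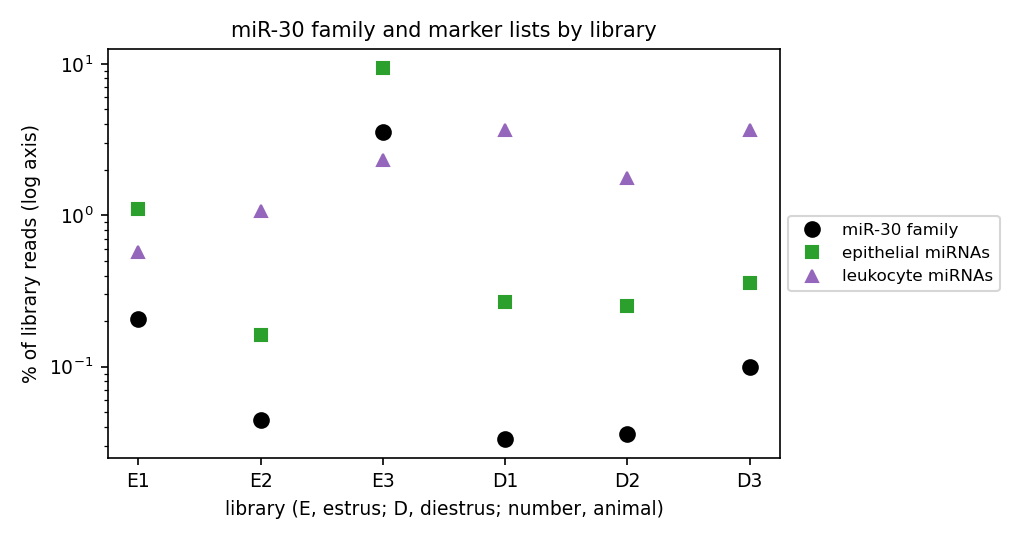
Share of library reads (%, log axis) of the miR-30 family, the epithelial miRNAs and the leukocyte miRNAs in the 3 estrus (E) and 3 diestrus (D) libraries, numbered by animal. The family (3.55%) and the epithelial list (9.41%) both peak in E3, while the leukocyte list is highest in D1 (3.68%).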

How the data were processed

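Small RNA libraries of cell-free saliva were made with the QIAseq miRNA kit, which adds a unique molecular index at reverse transcription, per the labels' protocols. The submitters' processing notes name FastQC, cutadapt, UMI-tools, Bowtie, SAMtools, featureCounts and DESeq2 without roles; the miRNA reference, and whether indices were collapsed, are not given in the sources used here, and "read" means the counted unit. The authors deposited 1 table of normalized counts, a signal scaled by a size factor per library. Every value was a whole multiple of its column's smallest value (largest distance 1.05e-05), and dividing by it gave whole numbers taken as reads. In 3 libraries (estrus replicate 2, diestrus replicates 1 and 2) fewer than 100 low values were there to check this step, so their reads are less firmly recovered. The depth of replicates 1, 2 and 3 was 16874, 6749 and 27036 for estrus, against 3015, 5548 and 5055 for diestrus.

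The 58 miRNAs with a mean of at least 5 were fitted with limma 3.58.1 (R 4.3.3) on log2(value + 1), by phase, with a mean-variance trend; fold changes on this scale understate those of low miRNAs. Labels pair samples by animal: deviations from phase means correlated at -0.0046, 0.37 and 0.30 in animals 1, 2 and 3, and at -0.41 to 0.34 between samples of different animals, so the values overlapped. Whether replicates include technical variation is not stated.

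Members, marker lists and tests were chosen with earlier results of these data known. All listed members, miR-1246 and the 5 most alike profiles were named. Alternatives were a replicate block, other pseudocounts, filters and scalings, and leaving out each library. Python 3.11.15 with scipy 1.17.1 gave shares and intervals; 0 reads were read as allowing up to 3. Sequences and genome positions were not used here.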

Additional observations from a re-analysis of the deposited data

How the results depend on the processing

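The number of miRNAs past an adjusted p-value of 0.05 (limma) was 0 as reported and 1 (miR-1246 itself) with totals without miR-1246. Over the fits without 1 library it ranged from 0 to 6, reached without estrus replicate 2. The main fit and the fit without estrus replicate 2 had 232 and 174 degrees of freedom, with the variance pooled over all miRNAs along the trend. Their p-values thus do not rest on the spread of each miRNA alone, and the 6 are not read as differences. The number past an unadjusted p-value of 0.05 (limma) was 8 of 58 as reported and 2 of 58 with a pseudocount of 10. It was 16 of 273 with no filter, a smaller share than as reported, and 2 of 18 with a mean of at least 50. It was 5 of 58 with totals without miR-1246 and 5 of 58 with median centring. Leaving out 1 library gave 0 to 11 of 58: 0 without estrus replicate 1, 11 without estrus replicate 2, 3 without estrus replicate 3, 3 without diestrus replicate 1 and 2 without diestrus replicate 3. The paired fit (replicate block) gave 0 and 6, and changed no adjusted call. The log2 difference of miR-30d stayed positive in all 13 alternatives that held it. It was 1.39 for a pseudocount of 10, 1.32 for totals without miR-1246, 1.55 with median centring, and 0.97 to 3.37 without 1 library. A mean of at least 50 leaves miR-30d out. No alternative left out both miR-1246 and estrus replicate 3. Outside miR-1246, miR-30d made up 0.144% and 0.0371% in estrus replicates 1 and 2, against 0.139%, 0.0400% and 0.150% in diestrus replicates 1, 2 and 3. The higher estrus mean of miR-30d on that scale rested on estrus replicate 3, so the steady sign is no support for a difference. Over the 58 miRNAs, the median log2 difference moved from 0.90 to 1.26 (CPM of the column total), -0.19 (totals without miR-1246) and 0.07 (median centring). The number of miRNAs higher at estrus with no overlap of the phases was 1 on the deposited scale and, on scales chosen after the data were seen, 1 as shares of reads and 0 outside miR-1246. The mean share of miR-30e-5p among family reads over the 6 libraries, 19.9%, fell to 11.9% without diestrus replicate 3. What causes the differences between settings was not tested. Count models (edgeR, DESeq2) were not run, since 3 libraries held fewer than 100 low values, the number set for checking recovered reads. In 4 of 6 libraries the family had 5 reads or fewer, so values there carry wide counting intervals.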
